A study of Mus musculus with 56 samples.

Results

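Aminoacyl-tRNA synthetases are the enzymes that join each amino acid to its transfer RNA, the step that supplies the ribosome with charged tRNA. The 36 synthetase genes examined here were chosen by name, not by their values, from the 47937 gene rows of each of 2 count tables. They comprise 20 rows for cytosolic enzymes or their subunits and 16 rows for mitochondrial enzymes. All 36 passed the low-count filter in both tables, so no member was lost before testing.

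Cells keep a pair of synthetase sets. One works in the cytosol, and its members are named with the letter of the amino acid and the ending ars. The other is encoded in the nucleus, is imported into mitochondria and mostly carries a final 2 in its name. Gars and Kars are known to encode both the cytosolic and the mitochondrial enzyme from a single gene, and they are counted here with the cytosolic members. Several cytosolic enzymes form the multisynthetase complex around the scaffold proteins Aimp1, Aimp2 and Eef1e1, and phenylalanyl-tRNA synthetase is built from the subunits Farsa and Farsb. Many cytosolic synthetase genes are known targets of ATF4, the transcription factor of the integrated stress response, which is switched on when uncharged tRNA activates the kinase GCN2. Activated T cells raise their translation machinery steeply when they begin to divide.

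The libraries are RNA-seq of mouse CD4+ T cells from spleen and lymph nodes that were activated with antibodies to CD3 and CD28 plus IL-2, polarized in vitro towards TH1, TH2, TH17 or Treg cells and collected on day 4. One table compares Odc flox/flox cells carrying Cre under the CD4 promoter (labelled KO, called Odc-/- here) with WT cells, and the other does the same for Dohh flox/flox. WT animals were littermates without Cre, and the mice were typically young adults, per the study's methods. Because Cre is driven by the CD4 promoter, the deletion is made in developing T cells and not at the start of culture. Odc encodes ornithine decarboxylase, the entry enzyme of polyamine synthesis, and Dohh encodes deoxyhypusine hydroxylase, which completes the hypusine residue of the translation factor eIF5A from spermidine. The question asked of the synthetases was how the cytosolic and mitochondrial classes differed with each deletion and between subsets.

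The Odc table held 16 WT and 15 Odc-/- libraries, 4 per group except 3 for Odc-/- TH2 cells, with 5905374 to 9145214 counts each. The Dohh table held 12 WT and 12 Dohh-/- libraries, 3 per group, with 6572148 to 12576933 counts. Replicate cultures are numbered but not tied to animals in the labels, so the tests measure the spread between these libraries. The counts did not check the deletions, because a row sums reads over all exons of a gene. Odc1 counts fell in TH17 libraries labelled Odc-/- (log2 fold change -0.40) and did not pass the test in the other subsets (-0.20 to 0.26). Dohh counts were higher in libraries labelled Dohh-/- (log2 fold change 0.41 to 1.43, past the test in TH1, TH2 and Treg cells). The lineage factors Tbx21 (TH1), Gata3 (TH2) and Foxp3 (Treg) each had their highest WT level in the subset they define. Cd4 was 22.1 to 79.7 CPM (counts scaled per library to the same TMM-adjusted total) in libraries labelled Dohh-/- against 661 to 968 CPM in the Dohh table's WT libraries, and Cd5 was 23.3 to 87.0 CPM against 434 to 730 CPM, while Cd3e was 98.1 to 326 CPM against 186 to 261 CPM and Cd3g 272 to 836 CPM against 323 to 476 CPM. In libraries labelled Odc-/- Cd4 was 273 to 694 CPM, against 441 to 1032 CPM in WT.

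Some libraries stood apart. The 4 Odc-table WT libraries numbered 4 had the highest summed cytosolic synthetase level of their group in every subset, and they were the highest of 4 for 17, 19, 17 and 18 of the 20 cytosolic members in TH1, TH2, TH17 and Treg cells. They also had more Phgdh, an enzyme of serine synthesis (175 to 357 CPM against 72.2 to 223 CPM in the other WT libraries), and less Cd4 (441 to 691 CPM against 700 to 1032 CPM). Many Odc results are therefore given with and without them, an alternative chosen after seeing the data. In the Dohh table the summed level of 5 myeloid markers ran from 5.83 to 4554 CPM in libraries labelled Dohh-/- and from 19.1 to 35.6 CPM in WT libraries, with Itgam at 0 in each library and up to 4211 CPM of the sum from Lyz2. In the Odc table that sum was 39.1 to 283 CPM in libraries labelled Odc-/- against 21.3 to 46.2 CPM in WT in TH17 cells and 83.2 to 348 CPM against 19.7 to 42.4 CPM in Treg cells, and at most 15.48 CPM in TH1 and TH2 libraries labelled Odc-/-. The summed level of 5 basophil or mast cell markers was 37.0 to 948 CPM against 0.973 to 2.99 CPM in the Dohh table, and 10.3 to 279 CPM against 1.14 to 13.9 CPM in the Odc table. The summed level of 4 CD8 T or NK cell markers in Treg cultures was 151 to 232 CPM in libraries labelled Odc-/- and 175 to 342 CPM in those labelled Dohh-/-, and at most 41.8 CPM in WT Treg libraries. The summed level of 4 B cell markers in Odc TH2 cultures was 233 to 411 CPM against 22.7 to 82.8 CPM. The part of these shifts in the synthetase results was not tested. In bulk RNA, fewer cells of a type and less RNA per cell cannot be told apart.

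As a class, the cytosolic synthetases were far more abundant than the mitochondrial ones. Averaged over the 8 WT groups, the median cytosolic member stood at 27.1 CPM per kb of exon and the median mitochondrial member at 4.82 CPM per kb. Vars (valine) had the highest cytosolic level at 76.1 CPM per kb, followed by Gars (glycine) at 66.7 and Sars (serine) at 59.1, and Eprs, the fused glutamate and proline enzyme, had the lowest at 10.3 CPM per kb. The mitochondrial leucine enzyme Lars2 was the exception, at 124 CPM per kb the highest of all 36. Without it, mitochondrial members ran from 1.64 CPM per kb for Mars2 (methionine) to 15.8 CPM per kb for Tars2 (threonine). Exon length here joins all annotated exons of a gene, 18102 bases for Eprs and 11294 bases for Mars2. A low level per kb therefore need not mean few counts. Lars2 also varied widely within groups, so the mitochondrial sum is given below without it.

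The summed cytosolic level had a higher mean with either deletion in each subset, and the groups were apart in TH1 and TH2 cells of both tables and in Dohh Treg cells. In TH2 cells the 3 Dohh WT libraries summed to 3013, 3424 and 3575 CPM, and the 3 libraries labelled Dohh-/- to 5494, 5686 and 5843 CPM. In Treg cells the WT libraries summed to 2539, 2623 and 2841 CPM and those labelled Dohh-/- to 4466, 4810 and 4920 CPM. In TH1 cells the sums were 3147, 3259 and 3393 CPM against 3529, 6043 and 6824 CPM, again without overlap but with 1 library labelled Dohh-/- close to WT. In TH17 cells they were 2513, 2563 and 2602 CPM against 2354, 2819 and 3426 CPM, and the groups overlapped. The TH17 library with the highest sum had the least Lyz2 (67.0 CPM), and the others had 4211 and 1205 CPM. In Dohh-/- Treg cells Lyz2 ran from 56.2 to 2855 CPM in libraries that summed to 4466 to 4920 CPM. A link between Lyz2 and the sums was not tested.

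In the Odc table the TH1 sums were 2874, 2895, 3047 and 3647 CPM in WT and 4036, 4316, 4458 and 4510 CPM in libraries labelled Odc-/-. In TH2 cells they were 3107, 3217, 3229 and 3978 CPM against 4661, 4942 and 4944 CPM. Both subsets showed no overlap. In TH17 cells the WT libraries gave 2992, 3005, 3216 and 3964 CPM and the Odc-/- libraries 3614, 3622, 3628 and 4054 CPM, and in Treg cells 2236, 2322, 2802 and 3962 CPM against 3264, 3378, 3515 and 3599 CPM. In the latter pair of subsets the groups overlapped only through the WT library numbered 4, the highest WT value of each. Lyz2 was 25.4 to 229 CPM in Odc-/- against 10.4 to 27.1 CPM in WT TH17 cells and 60.7 to 289 CPM against 12.0 to 25.0 CPM in Treg cells. The mitochondrial sum without Lars2 was 391 ± 41.3 CPM (SD, n = 4) in WT and 539 ± 17.3 CPM (n = 4) in Odc-/- Treg cells, and 506 ± 13.6 against 517 ± 88.3 CPM (n = 3 each) in the Dohh table's TH1 cells. Its means went from 487 to 540, 533 to 584 and 465 to 518 CPM in Odc TH1, TH2 and TH17 cells. In Dohh TH17 cells they went from 463 to 446 CPM. They rose from 418 to 494 CPM in Dohh Treg and fell from 586 to 537 CPM in Dohh TH2 cells, both without overlap. The ratio of the cytosolic sum to this mitochondrial sum was 5.70 ± 0.308 in WT and 10.6 ± 0.640 in Dohh-/- TH2 cells (n = 3 each), and its means went from 6.45 to 10.4 in Dohh TH1, from 5.53 to 6.41 in TH17 and from 6.38 to 9.59 in Treg cells. The Odc table's means went from 6.38 to 8.04, 6.34 to 8.30, 7.09 to 7.21 and 7.16 to 6.39 in TH1, TH2, TH17 and Treg cells. The Odc WT ratios without the WT libraries numbered 4 were 6.26, 6.08, 6.64 and 6.61, with an SD of 0.789 in Treg cells (n = 3), so that the lower Odc-/- Treg ratio was within that spread. These sums carry no test.

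**Figure D1:**
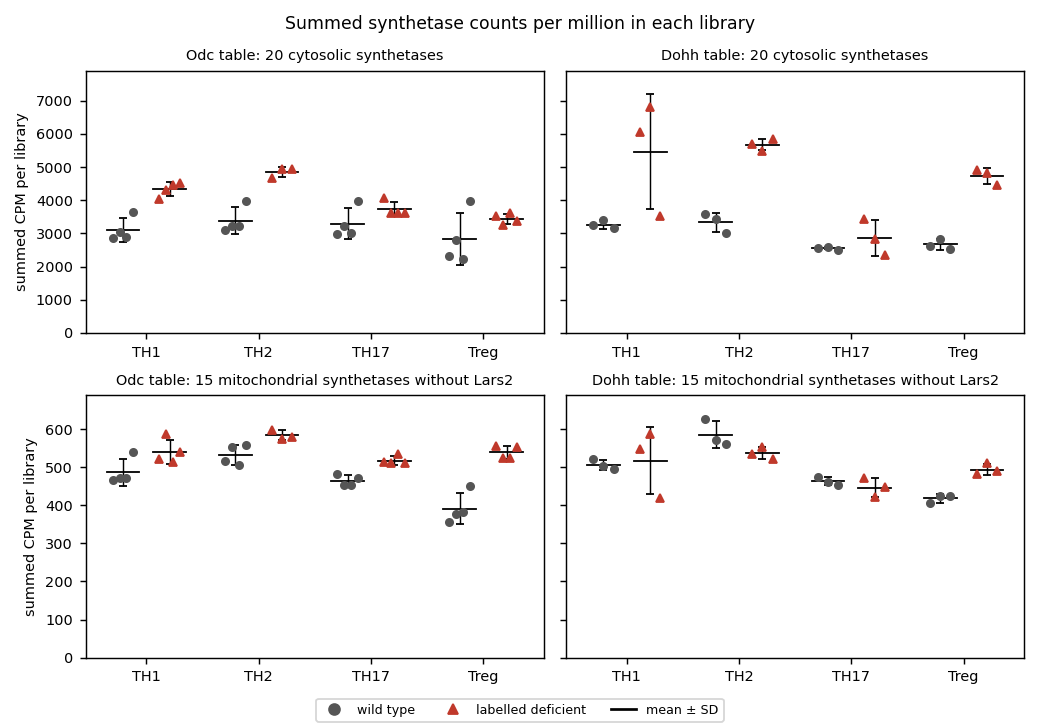
Summed CPM (y axis) of the 20 cytosolic synthetases (upper panels) and of the mitochondrial synthetases without Lars2 (lower panels) for each subset (x axis) in the Odc table (left) and the Dohh table (right). Each point is a library, WT or labelled KO, and the bars give mean and SD. In the Dohh table's TH2 cells all KO libraries (5494 to 5843 CPM) lie above all WT libraries (3013 to 3575 CPM) in the cytosolic sum. In the mitochondrial sum of the same cells all KO libraries (522 to 554 CPM) lie below all WT libraries (560 to 626 CPM).

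Gene by gene, more cytosolic synthetases rose than fell in each of the 8 comparisons. With Odc deletion, 16, 15, 8 and 11 of 20 cytosolic members rose in TH1, TH2, TH17 and Treg cells at an adjusted p below 0.05 (edgeR quasi-likelihood test), against 29.1%, 29.9%, 25.6% and 32.9% of all genes tested, and 2, 3, 1 and 3 fell, against 27.7%, 29.3%, 22.2% and 26.9%. With Dohh deletion, 16, 16, 8 and 16 of 20 rose, against 25.9%, 23.8%, 27% and 28.4% of all genes, and 1, 1, 2 and 1 fell, against 24.1%, 21.5%, 24.9% and 25%. In either direction, 56.8%, 59.2%, 47.8% and 59.8% of all genes changed with Odc deletion and 50%, 45.3%, 52% and 53.4% with Dohh deletion. The median cytosolic log2 fold change was 0.70, 0.77, 0.26 and 0.46 in Odc-/- and 0.91, 0.90, 0.41 and 0.94 in Dohh-/- cells in the same order of subsets, while the median over all genes tested lay between -0.00 and 0.07. TH17 cells had the fewest cytosolic members that rose in both tables. Without the WT libraries numbered 4, the Odc counts became 17, 17, 14 and 16 higher and 2, 1, 2 and 2 lower, with medians of 0.88, 0.90, 0.34 and 0.73, and 31%, 31.3%, 29.5% and 35.5% of all genes were then higher and 29.1%, 30.2%, 24.5% and 28.7% lower. Leaving out single libraries moved the Odc TH17 count of 9 changed cytosolic members to between 2 (without WT replicate 3) and 13 (without WT replicate 4), with 3 without WT replicate 1 and 5 without WT replicate 2.

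Of the 16 mitochondrial members, 7, 8, 4 and 11 rose and 3, 3, 1 and 0 fell with Odc deletion in TH1, TH2, TH17 and Treg cells, with medians of 0.16, 0.38, 0.18 and 0.50. Leaving out the WT libraries numbered 4 gave 7, 9, 6 and 11 higher and 3, 3, 1 and 1 lower. The 0 in Treg cells was 1 at an unadjusted p below 0.05 and 1 with DESeq2. With Dohh deletion 2, 4, 2 and 6 rose and 1, 1, 2 and 2 fell, with medians of 0.03, 0.11, 0.16 and 0.21. The shares that rose with Odc deletion in TH17 cells and with Dohh deletion in TH1, TH2 and TH17 cells were near or below those of all genes given above. In Odc-/- Treg cells the mitochondrial share was the highest of the 8 comparisons, and the mitochondrial and cytosolic medians were close to each other (0.50 and 0.46), though not without the WT libraries numbered 4 (0.54 and 0.73). The count of changed mitochondrial members in Odc-/- TH17 cells was 5, and it was 2 without Odc-/- replicate 3 or WT replicate 1 and 3 without Odc-/- replicate 2 or WT replicate 2 or 3. In Dohh-/- TH1 cells it was 3 and became 6 without Dohh-/- replicate 3. In Dohh-/- TH2 cells it was 5 and became 3 without any single library but WT replicate 3, which gave 4. In Dohh-/- Treg cells it was 8 and became 5 without Dohh-/- replicate 2 or 3 or WT replicate 2.

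By the study's stricter rule, an adjusted p below 0.05 and a change past 2-fold, 3, 6, 0 and 0 cytosolic members rose with Odc deletion against 10.2%, 11.5%, 8.35% and 13.9% of all genes, and 8, 10, 1 and 8 with Dohh deletion against 14.8%, 14.3%, 17.3% and 17.5%. The counts of 0 in Odc-/- TH17 and Treg cells were also 0 at an unadjusted p below 0.05 and with DESeq2, and the TH2 count of 6 was 3 with DESeq2. These Odc counts rested on the WT libraries numbered 4: without them 7, 8, 0 and 6 cytosolic members rose past 2-fold (all genes 12.3%, 13%, 9.85% and 16.3%), and 2, 1, 0 and 3 mitochondrial ones did. No cytosolic member fell past 2-fold in these 8 comparisons at an adjusted or unadjusted p below 0.05 with either tool, and none did without those 4 libraries, where 11.3%, 13.6%, 7.21% and 10.1% of all genes did with Odc and 14.2%, 11.6%, 14.1% and 15.2% with Dohh deletion. Among mitochondrial members 0, 1, 0 and 2 rose past 2-fold with Odc deletion and 2, 1, 0 and 3 with Dohh deletion. The mitochondrial count of 2 in Odc-/- Treg cells was 1 with DESeq2. Tars2 fell past 2-fold in Dohh-/- TH2 cells and Lars2 in Dohh-/- Treg cells, the latter through 1 WT library described below. Over all 160 pairs of a cytosolic member and a comparison, 106 were higher and 14 lower, and over the 128 mitochondrial pairs 44 were higher and 13 lower. Of all genes, 23.8% to 32.9% were higher and 21.5% to 29.3% lower in a comparison. The mitochondrial share that was higher lay close to the upper end of that range. Pairs share libraries and are not independent.

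Members were also counted by whether their KO and WT libraries overlapped. All Dohh-/- libraries lay above all WT libraries for 10, 18, 11 and 18 cytosolic members in TH1, TH2, TH17 and Treg cells, against 23.7%, 31.9%, 29.9% and 34.3% of all genes. All Odc-/- libraries lay above WT for 16, 17, 6 and 3 cytosolic members, against 21.9%, 30.6%, 21.5% and 25.2% of all genes. For mitochondrial members the numbers were 2, 6, 3 and 8 with Dohh deletion and 4, 8, 4 and 8 with Odc deletion. All KO libraries lay below WT for 2, 2, 1 and 3 cytosolic and 2, 5, 1 and 0 mitochondrial members with Odc deletion, against 21.5%, 30.5%, 19.6% and 20.6% of all genes, and for 1, 1, 3 and 1 cytosolic and 1, 2, 4 and 3 mitochondrial members with Dohh deletion, against 27%, 30.5%, 32.1% and 32.3%. With the WT libraries numbered 4 left out, all Odc-/- libraries lay above the remaining WT libraries for 17, 17, 14 and 15 cytosolic and 7, 8, 6 and 10 mitochondrial members, against 29%, 34.6%, 30.5% and 33.5% of all genes. By the count above WT, TH17 cells were not the lowest of the Dohh subsets for the cytosolic class.

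**Figure D2:**
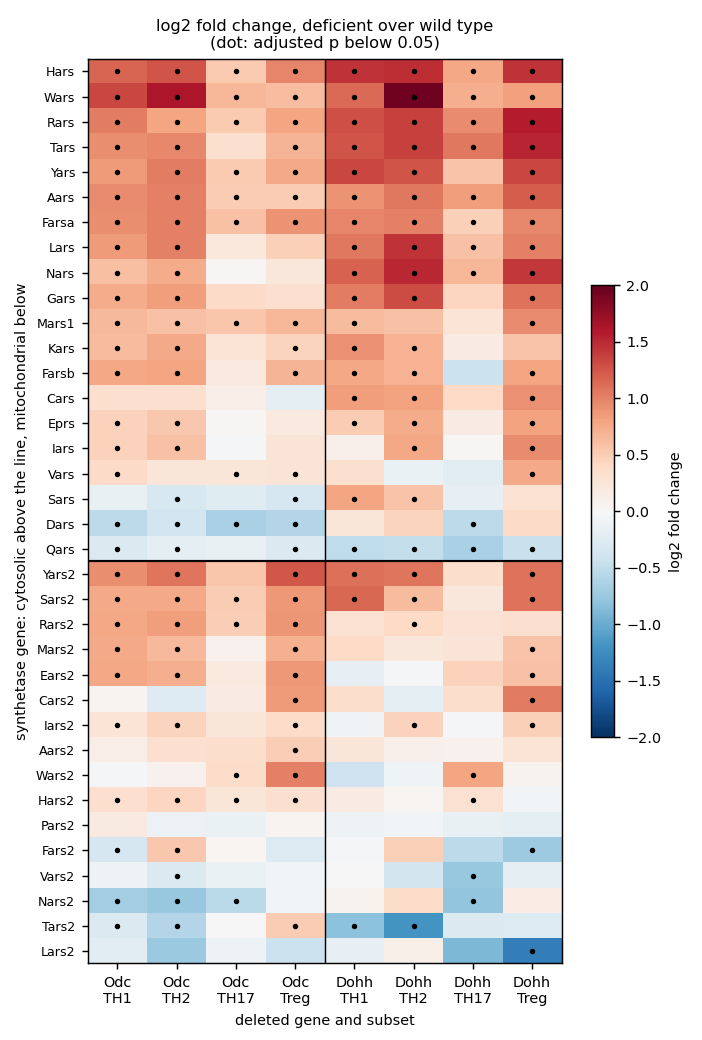
Log2 fold change of KO over WT libraries (color scale) for the 20 cytosolic (above the line) and 16 mitochondrial (below the line) synthetases in the 4 subsets of the Odc and Dohh tables. A dot marks an adjusted p below 0.05, as for 106 of 160 cytosolic cells that are higher and 14 that are lower, and 44 of 128 mitochondrial cells that are higher and 13 that are lower. Of all genes, 23.8% to 32.9% are higher and 21.5% to 29.3% lower in a comparison.

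Because many cytosolic members moved together, their promoters were searched for TGATGNAA, the letters of the element bound by ATF4 with a C/EBP partner, and for CACGTG, the E-box bound by Myc and its relatives. RefSeq promoter windows of GRCm38.p6, from 250 bases before to 50 after the start site, were found for 13 cytosolic and 14 mitochondrial members, and both strands were read. TGATGNAA was present in 5 of the 13 cytosolic promoters (38.5%: Aars, Gars, Iars, Tars and Yars), in 0 of the 14 mitochondrial ones and in 4.51% of 27025 genes in the table. With the fixed letters TGATGCAA it was present in 4 of 13 (30.8%), 0 of 14 and 1.03% of all genes. CACGTG was present in 4 of 13 (30.8%: Aars, Farsb, Iars and Tars), in 1 of 14 (Ears2) and in 8.09% of all genes. The Aars window has TGATGNAA at 2 places, 112 to 105 bases before the start and 10 to 17 bases after it. A match of letters is not a binding site, and a window without one says nothing of the factor. The windows of the 5 genes with a match, and of Qars, which fell, and Yars2, the mitochondrial member with the largest mean change, are shown from 120 bases before to 30 bases after the start, with matches in capitals on the gene's own strand, so that TTGCATCA and TTTCATCA are the reverse strand's reading of TGATGCAA and TGATGAAA.
Aars, alanine enzyme, chr8:111033722-111033871, plus strand: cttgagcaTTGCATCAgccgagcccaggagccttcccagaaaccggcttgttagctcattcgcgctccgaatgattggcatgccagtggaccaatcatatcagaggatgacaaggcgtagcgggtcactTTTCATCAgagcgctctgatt
Gars, glycine enzyme, chr6:55037881-55038030, plus strand: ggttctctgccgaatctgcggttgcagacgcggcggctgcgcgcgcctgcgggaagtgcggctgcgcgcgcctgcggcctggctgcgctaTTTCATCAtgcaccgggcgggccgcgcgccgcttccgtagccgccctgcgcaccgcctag
Iars, isoleucine enzyme, chr13:49682010-49682159, plus strand: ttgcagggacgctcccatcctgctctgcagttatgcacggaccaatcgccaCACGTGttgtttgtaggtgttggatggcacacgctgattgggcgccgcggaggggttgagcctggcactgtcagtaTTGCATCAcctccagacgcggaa
Tars, threonine enzyme, chr15:11399629-11399778, minus strand: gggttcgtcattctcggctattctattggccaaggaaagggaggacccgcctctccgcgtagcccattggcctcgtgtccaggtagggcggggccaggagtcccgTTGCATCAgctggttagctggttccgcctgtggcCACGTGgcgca
Yars, tyrosine enzyme, chr4:129189783-129189932, plus strand: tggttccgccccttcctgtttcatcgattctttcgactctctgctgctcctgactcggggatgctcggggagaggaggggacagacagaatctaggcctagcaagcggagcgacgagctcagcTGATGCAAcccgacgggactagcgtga
Qars, glutamine enzyme, chr9:108507885-108508034, plus strand: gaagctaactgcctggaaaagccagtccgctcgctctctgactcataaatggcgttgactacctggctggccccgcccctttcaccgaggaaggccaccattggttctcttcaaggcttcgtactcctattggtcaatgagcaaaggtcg
Yars2, mitochondrial tyrosine enzyme, chr16:16302845-16302994, plus strand: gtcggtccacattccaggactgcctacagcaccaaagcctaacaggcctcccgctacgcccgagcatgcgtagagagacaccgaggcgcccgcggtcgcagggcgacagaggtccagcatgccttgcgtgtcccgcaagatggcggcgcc

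In all, 5 cytosolic members rose in all 8 comparisons: Aars, Farsa, Hars, Rars and Wars, against 6.1% of the genes tested in both tables. Lars and Tars joined them when the Odc WT libraries numbered 4 were left out, against 7.69%. Hars, the histidine enzyme, and Wars had mean log2 fold changes of 1.13 and 1.11 over the 8 comparisons, and of 1.22 and 1.24 without those libraries. In Treg cells its Dohh WT libraries were at 64.3, 70.7 and 80.8 CPM and those labelled Dohh-/- at 169, 193 and 225 CPM, a log2 fold change of 1.44 ± 0.23 (SE; adjusted p = 2.38e-05). In the Odc table's Treg cells Hars was at 54.1, 63.9, 66.2 and 111 CPM in WT and 136, 139, 140 and 166 CPM in Odc-/- libraries (0.98 ± 0.18, adjusted p = 5.03e-05). Its KO and WT libraries were apart in each subset of both tables, even with the high WT library numbered 4. The smallest Hars change was in Odc-/- TH17 cells, from 101, 104, 110 and 148 CPM to 149, 165, 172 and 177 CPM (0.52, adjusted p = 0.0195). Hars overlaps its divergent neighbour Hars2 over 7.97% of its exon length, and reads there cannot be told apart unless counted by strand. Aars shares 14.3% of its exon length with Exosc6 on the same strand, an overlap that counting by strand does not resolve.

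Wars, the tryptophan enzyme, is also known as an interferon-γ induced gene, and it had the largest single change of the family. In TH2 cells Dohh WT libraries were at 41.5, 48.2 and 60.6 CPM and Dohh-/- libraries at 184, 191 and 205 CPM, a 3.85-fold difference (log2 fold change 1.95 ± 0.20, adjusted p = 2.27e-07). In the Odc table's TH2 cells Wars was at 37.0, 37.0, 37.1 and 60.8 CPM in WT and at 128, 131 and 135 CPM in Odc-/- libraries (1.61 ± 0.24). Both TH2 changes exceeded those in TH17 cells (0.67 in Odc-/- and 0.72 in Dohh-/- cells). In Odc Treg cells the groups overlapped through 1 WT library, with 47.5, 50.8, 60.1 and 110 CPM against 93.2, 96.0, 106 and 115 CPM (0.61, adjusted p = 0.02; 0.96 without the WT libraries numbered 4). The Odc effect on Wars differed between subsets (interaction adjusted p = 0.0336), and its Dohh effect differed as well (0.00935).

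Rars, the arginine enzyme, had its largest change in Dohh-/- Treg cells, from 48.9, 52.0 and 52.6 CPM in WT to 137, 156 and 161 CPM (log2 fold change 1.56 ± 0.15, adjusted p = 7e-08). Its groups were apart in all 4 Dohh comparisons, with changes of 0.95 to 1.56. In the Odc table Rars rose by 1.02, 0.79, 0.52 and 0.78 in TH1, TH2, TH17 and Treg cells, and the groups overlapped in the latter pair. In Odc Treg cells the WT values were 54.0, 57.9, 74.8 and 128 CPM and the Odc-/- values 128, 128, 132 and 153 CPM, so that the WT library numbered 4 sat at the lower edge of the deficient group.

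Tars, the threonine enzyme, rose in 7 comparisons, from 58.9, 59.3 and 62.3 to 158, 158 and 203 CPM in Dohh-/- Treg cells (log2 fold change 1.52 ± 0.19), and stood at 0.32 (adjusted p = 0.256) in Odc-/- TH17 cells. There its WT libraries were at 78.8, 84.8, 88.2 and 151 CPM and its Odc-/- libraries at 120, 124, 129 and 131 CPM. Without the libraries numbered 4 the Tars difference there was 0.59 (adjusted p = 0.000212), and that in Odc-/- Treg cells went from 0.69 to 1.1. Yars, the tyrosine enzyme, also rose in 7 comparisons, most in Dohh-/- TH1 cells (1.34 ± 0.25). That value came from WT libraries at 106, 110 and 115 CPM and Dohh-/- libraries at 137, 274 and 427 CPM, a wide spread. Aars rose by 0.51 to 1.21 and Farsa, the catalytic phenylalanine subunit, by 0.48 to 1.01. In Odc-/- Treg cells the Aars value was 0.51, and 0.80 without the libraries numbered 4. Farsa in Odc Treg cells went from 42.2, 42.9, 47.5 and 76.1 CPM to 91.4, 96.4, 96.6 and 105 CPM.

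**Figure D3:**
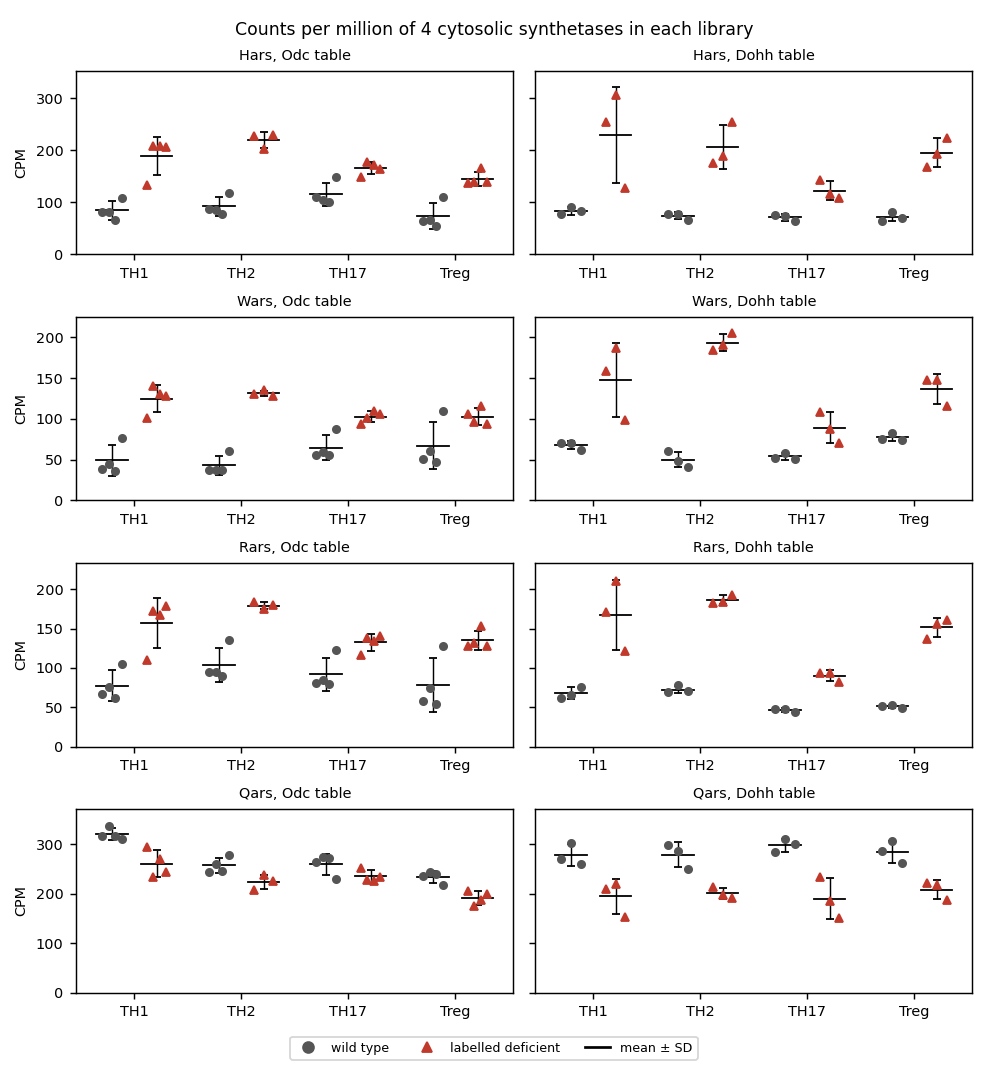
CPM (y axis, starting at 0) of the cytosolic synthetases Hars, Wars, Rars and Qars for each subset (x axis) in the Odc table (left) and the Dohh table (right), with 1 point per library and bars for mean and SD. KO libraries of Hars lie above WT (169 to 225 CPM against 64.3 to 80.8 CPM in Dohh Treg cells) and those of Qars below (151 to 233 CPM against 284 to 310 CPM in Dohh TH17 cells), while KO and WT libraries overlap for Wars in Odc Treg, Rars in Odc TH17 and Treg and Qars in Odc TH17 cells.

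Nars, Lars and Gars had larger values with Dohh than with Odc deletion in each subset when all libraries were used, and without the Odc WT libraries numbered 4 in each but TH1 cells for Lars (1.07 with Odc, 1.06 with Dohh) and TH17 cells for Gars (0.57 and 0.43). With all libraries, the test of the difference passed for Nars in TH2 and Treg cells and for Gars in Treg cells. It passed for Lars in no subset, and for Gars in Treg cells not without the libraries numbered 4. The deletions cannot be told apart from the tables here. Nars, for asparagine, rose in all 4 Dohh-/- subsets, by 1.18, 1.51, 0.67 and 1.42 on the log2 scale, and in TH2 cells its libraries went from 137, 138 and 144 CPM to 385.1, 392.1 and 414.4 CPM. With Odc deletion it rose by 0.60 and 0.74 in TH1 and TH2 cells and stood at 0.03 (adjusted p = 0.912) and 0.22 (adjusted p = 0.351) in TH17 and Treg cells. For Nars in Odc Treg cells, the Odc-/- libraries lay within the range of WT, with 130, 142, 185 and 312 CPM in WT and 212, 224, 226 and 233 CPM in Odc-/- cells. That reading turned on the WT library at 312 CPM: with the libraries numbered 4 left out, Nars rose in Odc-/- Treg cells (0.56, adjusted p = 9.55e-05) and stood at 0.22 (adjusted p = 0.087) in TH17 cells. Lars, for leucine, rose in 6 comparisons, all but Odc-/- TH17 and Treg cells, and most in Dohh-/- TH2 cells (1.45 ± 0.20). With those libraries left out Lars rose in Odc-/- TH17 and Treg cells as well (0.34 and 0.85, adjusted p = 0.00802 and 2.06e-07). Gars rose in 5, past 2-fold in Dohh-/- TH1, TH2 and Treg cells (1.03, 1.30 and 1.09), and in TH2 cells from 221, 247 and 257 CPM to 572, 577 and 642 CPM. Its libraries labelled Dohh-/- were uneven in TH1 cells, at 287, 568 and 705 CPM. In Odc-/- TH17 and Treg cells Gars stood at 0.38 and 0.33, and it rose there without the libraries numbered 4 (0.57 and 0.66, adjusted p = 0.000127 and 1e-05).

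The remaining cytosolic members that rose did so by less than 2-fold. Farsb, the other phenylalanine subunit, and Mars1, for methionine, each rose in 6 comparisons, with log2 fold changes of -0.42 to 0.79 and 0.27 to 0.94 over all 8. Farsb was the member at odds with its partner in Dohh-/- TH17 cells, where its libraries were at 62.0, 66.6 and 78.0 CPM against 89.2, 91.5 and 96.3 CPM in WT (-0.42, adjusted p = 0.0713) while Farsa rose there by 0.48. Kars (lysine) and Eprs rose in 5 comparisons, Iars (isoleucine) and Vars in 4 and Cars (cysteine) in 3, the latter in Dohh-/- TH1, TH2 and Treg cells. None of these 7 fell in any comparison, with or without the WT libraries numbered 4. Several Odc calls turned on those libraries. Without them Cars rose in Odc-/- TH1, TH2 and TH17 cells too (0.42, 0.38 and 0.35, adjusted p = 0.00255, 0.00828 and 0.0129), Kars in TH17 cells (0.34), Vars in TH2 cells (0.27), and Eprs and Iars in Treg cells (0.47 and 0.60). Farsb then rose in Odc-/- TH17 cells (0.30, adjusted p = 0.0337), and its Treg change went from 0.68 to 1.05, past 2-fold. Mars1 shares 1.99% of its exon length with Ddit3 on the opposite strand.

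The other 3 cytosolic members went another way. Qars, the glutamine enzyme, did not rise in any comparison and fell in 7. In Dohh TH17 cells its WT libraries were at 284, 300 and 310 CPM and its Dohh-/- libraries at 151, 185 and 233 CPM (log2 fold change -0.65 ± 0.16, adjusted p = 0.00177). In the Odc table's Treg cells it went from 217, 236, 240 and 244 CPM to 175, 187, 200 and 206 CPM (-0.29 ± 0.08, adjusted p = 0.0032). Its groups did not overlap except in Odc TH17 cells, where it stood at -0.14 (adjusted p = 0.139). The Odc-/- TH2 call (-0.20, adjusted p = 0.0464) was the weakest of the 7. With the WT libraries numbered 4 left out, the TH2 call was lost (-0.16, adjusted p = 0.094) and Qars fell in Odc-/- TH17 cells (-0.20, adjusted p = 0.0353).

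Dars, the aspartate enzyme, fell with Odc deletion in all 4 subsets, by 0.52, 0.38, 0.65 and 0.58 on the log2 scale. Its Odc Treg libraries went from 156, 163, 189 and 196 CPM to 114, 118, 119 and 120 CPM, without overlap. With Dohh deletion Dars fell only in TH17 cells (-0.52, adjusted p = 0.0287; WT 120, 141 and 145 CPM, Dohh-/- 57.6, 111 and 114 CPM) and stood at 0.25, 0.44 and 0.38 in TH1, TH2 and Treg cells, none past the test. In Dohh Treg cells the KO libraries, at 127, 137 and 143 CPM, all lay above the WT libraries, at 99.9, 106 and 108 CPM. Sars, the serine enzyme, rose in Dohh-/- TH1 and TH2 cells (0.79 and 0.58) and fell in Odc-/- TH2 and Treg cells (-0.32 and -0.34), but neither fall passed without the WT libraries numbered 4 (-0.29 and -0.26, adjusted p = 0.0592 and 0.0691). Its Dohh-/- TH1 libraries ranged from 285 to 713 CPM and its TH1 WT libraries from 262 to 310 CPM.

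Dars, Eprs, Iars, Kars, Lars, Mars1, Qars and Rars are the enzymes of the multisynthetase complex. This set of 8 was compared after its values had been seen. Its median log2 fold change was 0.55, 0.58, 0.12 and 0.35 with Odc deletion in TH1, TH2, TH17 and Treg cells, against 0.82, 0.90, 0.35 and 0.56 for the 12 other cytosolic members. With Dohh deletion it was 0.57, 0.72, 0.16 and 0.87 against 1.01, 1.15, 0.53 and 1.03. The complex enzymes had the lower median in each of the 8 comparisons, a difference with no test here. Without the WT libraries numbered 4 the Odc medians were 0.63, 0.69, 0.25 and 0.59 against 0.94, 1.05, 0.58 and 0.88. The scaffold gene Eef1e1 rose in all 8 comparisons (0.68 to 1.34), Aimp2 in 6 and Aimp1 in 2. The Aimp1 call in Odc-/- Treg cells (0.22, adjusted p = 0.0352) did not pass without those 4 libraries (also 0.22, adjusted p = 0.0502), and Aimp2 then rose in Odc-/- TH17 cells (0.48).

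Among mitochondrial members Yars2, the tyrosine enzyme, changed most. It rose in 6 comparisons and past 2-fold in 5. Its Odc WT Treg libraries were at 6.67, 10.5, 10.8 and 18.5 CPM and its Odc-/- libraries at 25.5, 26.6, 27.4 and 30.5 CPM (log2 fold change 1.25 ± 0.24, adjusted p = 7.88e-05). In Dohh Treg cells it went from 12.8, 12.9 and 16.3 CPM to 25.4, 31.1 and 32.5 CPM (1.09 ± 0.23, adjusted p = 0.000538). The groups were apart in both. In TH17 cells Yars2 stood at 0.56 (adjusted p = 0.0548) in Odc-/- and 0.35 (adjusted p = 0.21) in Dohh-/- cells, with overlap. Without the WT libraries numbered 4 it rose in Odc-/- TH17 cells (0.78, adjusted p = 0.000269).

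Sars2, for serine, rose in 7 comparisons, past 2-fold in Dohh-/- TH1 and Treg cells (1.14 and 1.08). In Dohh Treg cells it went from 15.7, 16.4 and 19.1 CPM to 34.3, 36.7 and 37.1 CPM, whereas in TH1 cells the Dohh-/- libraries were spread over 21.6, 43.6 and 65.2 CPM. Rars2, for arginine, rose with Odc deletion in all 4 subsets, by 0.77, 0.83, 0.49 and 0.88, and with Dohh deletion in TH2 cells (0.40). Its Odc Treg libraries were at 14.1, 15.7, 17.4 and 20.7 CPM in WT and at 28.9, 31.2, 31.4 and 33.5 CPM in Odc-/- cells. In Treg cells the Rars2 change was larger with Odc than with Dohh deletion, by 0.52 ± 0.20 (adjusted p = 0.0422).

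The other mitochondrial members changed in both directions. Hars2 and Iars2 each rose in 5 comparisons, by at most 0.42 and 0.47, Ears2 (glutamate) and Mars2 in 4, Wars2 (tryptophan) in 3, Cars2 (cysteine) in 2 and Aars2 (alanine) in 1. Ears2 rose in Odc-/- TH1, TH2 and Treg cells (0.77, 0.73 and 0.87) and Dohh-/- Treg cells (0.59). Nars2 (asparagine) fell in 4, by 0.70, 0.76 and 0.53 in Odc-/- TH1, TH2 and TH17 cells and by 0.79 in Dohh-/- TH17 cells. Vars2 (valine) fell in 2, Odc-/- TH2 and Dohh-/- TH17 cells (-0.29 and -0.76). Leaving out the Odc WT libraries numbered 4 lost the calls of Hars2 in Odc-/- TH17 cells (0.25 to 0.22, adjusted p = 0.0776) and of Vars2 in Odc-/- TH2 cells (-0.26, adjusted p = 0.06). With them left out Aars2 rose in Odc-/- TH2 and TH17 cells too (0.43 and 0.38, adjusted p = 0.0209 and 0.0351), and Iars2 in TH17 cells (0.27, adjusted p = 0.00507). Pars2, for proline, did not pass the test in any comparison (-0.18 to 0.18). Of exon length, Iars2 shares 24.2% with genes on the opposite strand, Fars2 10.7%, Farsb 9.47%, Vars2 8.52% and Cars2 5.83%, and these values assume that reads were counted by strand.

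**Figure D4:**
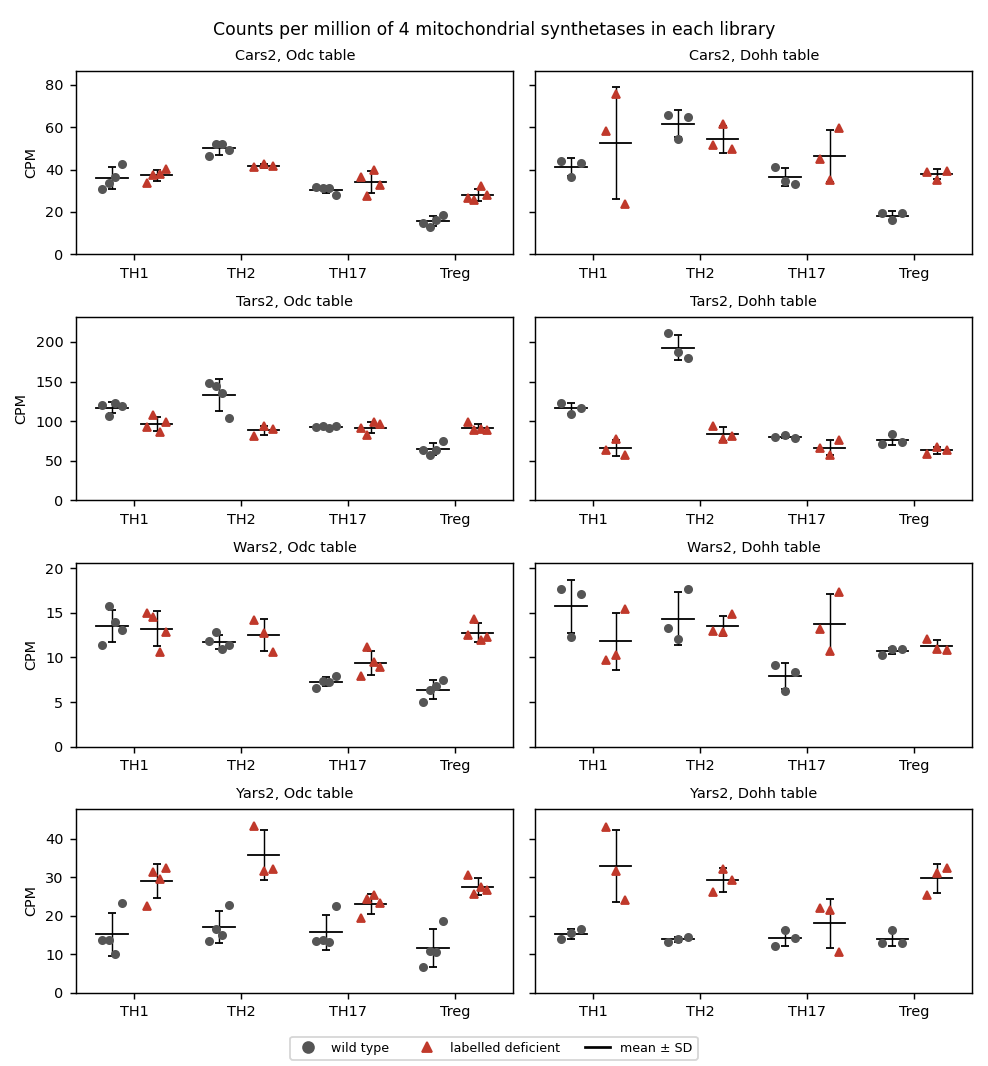
CPM (y axis, starting at 0) of the mitochondrial synthetases Yars2, Cars2, Tars2 and Wars2 for each subset (x axis) in the Odc table (left) and the Dohh table (right), with 1 point per library and bars for mean and SD. In Odc Treg cells Cars2 lies at 12.9 to 18.4 CPM in WT and 25.8 to 32.1 CPM in KO libraries, and Tars2 at 58.0 to 75.2 and 88.9 to 99.6 CPM.

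Of the mitochondrial members, Cars2, Tars2 and Wars2 had the smallest p for a difference between subsets in the WT cells of both tables. Cars2 was lowest in WT Treg cells in both tables. The Odc WT libraries were at 12.9, 14.6, 16.2 and 18.4 CPM in Treg and at 46.1, 49.1, 52.1 and 52.3 CPM in TH2 cells, and the Dohh WT libraries at 16.1, 19.3 and 19.4 CPM and at 54.2, 64.8 and 65.8 CPM. Between them lay TH17 cells (means of 30.6 and 36.4 CPM) and TH1 cells (35.9 and 41.1 CPM), whose libraries overlapped each other. WT Treg cells were below the mean of the other WT subsets by 1.29 on the log2 scale in the Odc table (adjusted p = 1.55e-11) and by 1.30 in the Dohh table (adjusted p = 0.000198). With deletion Cars2 rose in Treg cells of both tables and did not rise past the test in another subset. It went to 25.8, 26.4, 27.8 and 32.1 CPM in Odc-/- cells (0.85 ± 0.12, adjusted p = 8.3e-07) and to 35.1, 38.9 and 39.3 CPM in Dohh-/- cells (1.04 ± 0.27, adjusted p = 0.00248). The Odc effect differed between subsets (interaction adjusted p = 7.11e-05), and the Dohh effect did not pass that test (0.105). In Odc-/- TH2 cells Cars2 stood at -0.26 (adjusted p = 0.0609), and it fell there without the WT libraries numbered 4 (-0.27, adjusted p = 0.0417).

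Tars2 moved in opposite directions. In Odc Treg cells it rose from 58.0, 63.2, 63.2 and 75.2 CPM to 88.9, 89.2, 90.2 and 99.6 CPM (0.50 ± 0.10, adjusted p = 9.1e-05), while in TH2 cells it fell from 104, 136, 145 and 148 CPM to 81.6, 89.8 and 93.8 CPM (-0.59 ± 0.11, adjusted p = 4.46e-05). It also fell in Odc-/- TH1 cells (-0.28) and stood at -0.01 in TH17 cells. Tars2 levels differed between subsets in Odc WT cells (adjusted p = 2.47e-09), and the same test among Odc-/- cells gave an adjusted p of 0.744. In Dohh TH2 cells Tars2 fell further, from 180, 187 and 211 CPM to 77.1, 81.3 and 93.4 CPM (-1.20 ± 0.14, adjusted p = 9.32e-07), and in TH1 cells by 0.82. In Dohh Treg cells it stood at -0.27 (adjusted p = 0.1), with 71.8, 74.2 and 83.6 CPM in WT and 58.3, 64.3 and 67.6 CPM in Dohh-/- libraries. Among Dohh-/- subsets the adjusted p was 0.0607, against 8.88e-08 in WT. The genotype effect differed between subsets in both tables (interaction adjusted p = 1.11e-05 and 0.00273).

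Wars2 rose in Odc-/- Treg cells from 4.97, 6.30, 6.80 and 7.46 CPM to 11.9, 12.2, 12.6 and 14.3 CPM (1.0 ± 0.14, adjusted p = 1.89e-06) and in TH17 cells of both tables (0.37 and 0.79). In Dohh Treg cells the groups overlapped, with 10.3, 10.9 and 10.9 CPM in WT and 10.8, 10.9 and 12.0 CPM in Dohh-/- libraries (0.07, adjusted p = 0.807). The mean Wars2 level of WT Treg cells was 6.38 CPM in the Odc table and 10.7 CPM in the Dohh table, a difference not tested. Fars2, for phenylalanine, rose in Odc-/- TH2 cells (0.54, adjusted p = 0.000725), fell in TH1 cells (-0.34, adjusted p = 0.0191), and fell in Dohh-/- Treg cells from 30.1, 31.0 and 32.5 CPM to 15.98, 19.4 and 21.5 CPM (-0.72, adjusted p = 0.00933). In Odc-/- Treg cells Fars2 stood at -0.27 (adjusted p = 0.0561) and fell without the WT libraries numbered 4 (-0.33, adjusted p = 0.0188).

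With all libraries Lars2 passed the test once, in Dohh Treg cells (-1.39 ± 0.53, adjusted p = 0.0325). Its WT libraries there were at 1190, 1510 and 5338 CPM and its Dohh-/- libraries at 946, 947 and 1176 CPM. The groups did not overlap, but the lowest WT library lay just above the highest Dohh-/- library, and 1 WT library stood far above the rest. Without that library, WT replicate 2, the difference was -0.46 (adjusted p = 0.441). The call was also lost without Dohh-/- replicate 1 (-1.33, adjusted p = 0.0815) or 3 (-1.38, adjusted p = 0.0783). It was lost as well without a low-count filter (-1.41, adjusted p = 0.0807) and in a fit of only these groups (-1.42, adjusted p = 0.0973). In these fits the difference itself stayed close to that of the main test. In the other 7 comparisons Lars2 ranged from -0.90 to 0.11 on the log2 scale.

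Across subsets of WT cells, 6 of 20 cytosolic and 9 of 16 mitochondrial members differed in the Odc table, where 71.1% of all genes did, and 9 and 5 in the Dohh table, where 40.1% did. The mitochondrial share of each table was below the background of that table, and the Dohh cytosolic share was near its background. The Odc cytosolic share, below the background with all libraries, turned on the WT libraries numbered 4: without them 18 cytosolic and 12 mitochondrial members differed, where 70.5% of all genes did. Among Odc WT cells, 5 cytosolic members (Dars, Hars, Qars, Sars and Vars) were lower in Treg cells than in the mean of the other subsets. That share was near the 24% of all genes that were lower. In the same contrast 0 cytosolic members were higher (1 at an unadjusted p below 0.05), against 24.2% of all genes. There 6 mitochondrial members (Cars2, Ears2, Nars2, Rars2, Tars2 and Wars2) were lower and Hars2 was higher. Without the libraries numbered 4, 16 cytosolic members were lower in Odc WT Treg cells and Wars was higher, and 8 mitochondrial members were lower, against 24.7% of all genes lower and 23% higher. The Dohh table did not show this for the cytosolic class. In its WT Treg cells 1 cytosolic member was higher and 0 lower, and 0 mitochondrial members were higher and 2 lower. Among Dohh WT cells, 6 cytosolic members (Aars, Cars, Eprs, Iars, Rars and Tars) were lower in TH17 cells, by 0.44 to 0.69, against 7.94% of all genes, and 0 were higher (0 at an unadjusted p below 0.05), against 9.95%. In Odc WT TH17 cells 1 cytosolic member was higher and 0 lower, and without the libraries numbered 4, 7 were higher and 0 lower. Iars was among these 7 (0.31, adjusted p = 0.00788), opposite to its Dohh WT difference. Shares of all genes were not taken for the Odc TH17 and Dohh Treg contrasts. DESeq2 was not run for these contrasts of 1 WT subset with the others. Cars2 and Tars2 were lower in Treg and higher in TH2 cells in both tables. The Odc cytosolic count was 17 without the Treg library numbered 4 alone. With genotype and replicate number fitted as a block, 17 cytosolic and 14 mitochondrial members differed between Odc WT subsets, against 81.5% of all genes. In deficient cells 9 cytosolic and 4 mitochondrial members differed between subsets with Odc deletion (53.9% of all genes; 19 and 5 when the WT libraries numbered 4 are kept out of the fit, with 60.1% of all genes) and 19 and 3 with Dohh deletion (39.6%), the latter with the lowest mean cytosolic sum in TH17 cells. Single libraries moved some of the Dohh numbers: the 9 cytosolic members of WT cells became 5 without WT TH17 replicate 1 or 3, the 5 mitochondrial ones became 3 without WT TH1 replicate 2, and the 3 mitochondrial ones of Dohh-/- cells became 1, 5 and 8 without TH1 replicates 1, 2 and 3.

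The difference of the genotype effect between subsets was tested as an interaction. With Odc deletion 1 cytosolic (Wars) and 4 mitochondrial members (Cars2, Fars2, Tars2 and Wars2) passed the interaction test, against 34.8% of all genes. With Dohh deletion 6 cytosolic (Dars, Farsb, Iars, Nars, Vars and Wars) and 3 mitochondrial members (Fars2, Tars2 and Wars2) did, against 17.9%. The Odc cytosolic number depended on the libraries numbered 4: without these 4 it was 12 (and the mitochondrial number 7), where 40.9% of all genes passed, without the Treg library alone 6, without the TH2 library alone 4, without the TH1 library alone or Odc-/- TH1 replicate 1 it was 3, and it was 0 without any one Odc-/- TH2 library, Odc-/- Treg replicate 2 or 4, or WT TH2 replicate 1, 2 or 3. The Dohh cytosolic number was 15 without Dohh-/- TH1 replicate 3, the library with the lowest sum in that group (3529 CPM), and 2 or 3 without any one of 18 others, among them each Dohh-/- TH2 and Treg library and each WT TH1, TH17 and Treg library. The Dohh mitochondrial number was 6 without Dohh-/- TH1 replicate 3 and 1 without any one of 9 other libraries of TH2, TH17 or Treg cells. With genotype and replicate number fitted as a block, the Odc cytosolic number was 15, against 52.9% of all genes. The labels do not tie replicate numbers to animals.

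Odc and Dohh effects were compared in a single fit of both tables, over 12924 genes tested in each. In Treg cells 14 members differed, against 29.9% of all genes, and all 11 of the cytosolic ones had the smaller value with Odc deletion, against 14.7% of all genes. Nars had the largest difference (-1.23 ± 0.27, adjusted p = 0.000419), followed by Cars (-1.14, adjusted p = 0.000788) and Dars (-1.0, adjusted p = 0.000188), and Aars, Eprs, Gars, Iars, Rars, Sars, Tars and Vars were lower by 0.53 to 0.86. The mitochondrial Rars2, Tars2 and Wars2 had the larger value with Odc deletion (0.52, 0.74 and 0.89). Without the Odc WT libraries numbered 4, 9 of the 14 still passed: Aars, Cars, Dars, Nars, Rars and Sars, and Rars2, Tars2 and Wars2. These 9 of 36 members stood against 29.2% of all genes, so the share of members was then not above that of all genes. Leaving out single libraries gave 7 without WT Treg replicate 4 of the Odc table, without Dohh WT Treg replicate 1 or without Dohh WT Treg replicate 3, and 8 without Dohh-/- Treg replicate 1.

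In TH1 cells 5 members differed between deletions (21.9% of all genes): Dars, Nars2 and Sars were lower with Odc deletion (-0.79, -0.80 and -0.97), and Ears2 and Tars2 higher (0.92 and 0.51). In TH2 cells 5 did (18.4%): Dars, Nars, Nars2 and Sars lower (-0.81, -0.76, -1.13 and -0.89) and Tars2 higher (0.62). In TH17 cells only Qars and Vars2 passed, both higher with Odc deletion (0.45 and 0.57; 24.5% of all genes), and without the Odc WT libraries numbered 4 neither did, while Farsb did (0.67, adjusted p = 0.0255). The TH1 number was 9 without Dohh-/- TH1 replicate 3, 2 without Dohh WT TH1 replicate 1 and 3 without Odc-/- TH1 replicate 2 or 3 or Odc WT TH1 replicate 1, 2 or 3, and the TH17 number ran from 0 (without Dohh-/- TH17 replicate 2 or Odc WT TH17 replicate 4) to 4 (without Dohh-/- TH17 replicate 1 or Odc WT TH17 replicate 1 or 3). Dars and Sars thus had lower values with Odc than with Dohh deletion in TH1, TH2 and Treg cells, and Tars2 higher ones.

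**Figure D5:**
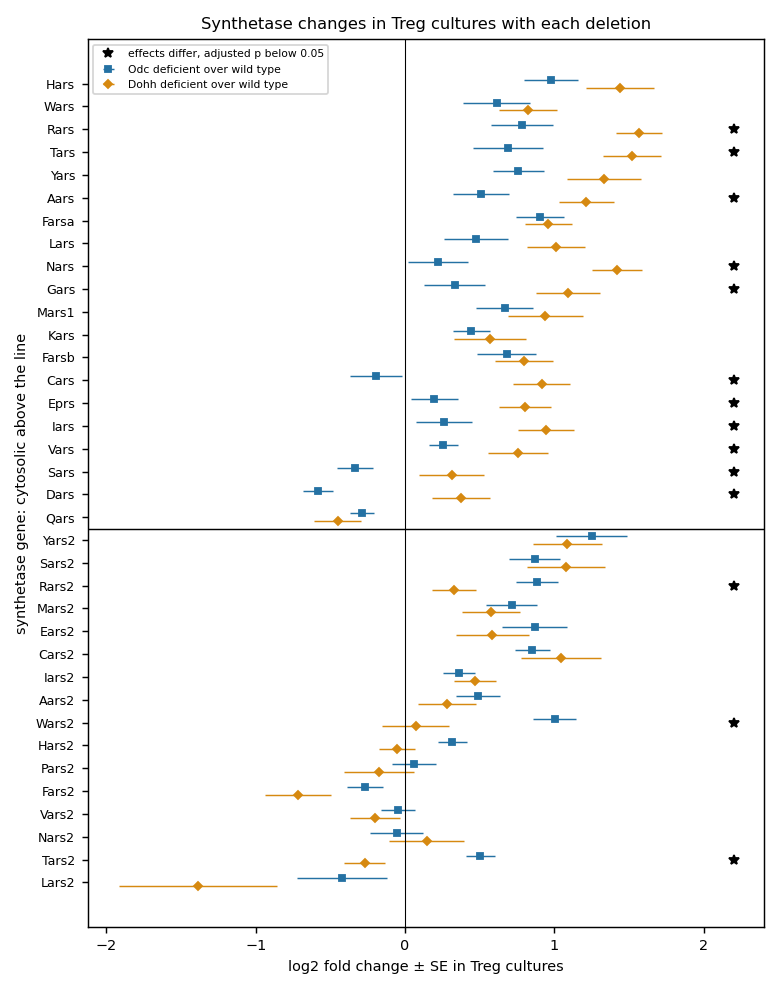
Log2 fold change with its SE (x axis) of each synthetase (y axis, cytosolic above the line) in Treg cultures, KO over WT, for the Odc and the Dohh deletion. Stars mark the 14 members whose effects differed between the deletions. The Dohh values lie further right for most cytosolic members, such as Nars (1.42 against 0.22), and the Odc values further right for Tars2 (0.50 against -0.27) and Wars2 (1.0 against 0.07).

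Genes that work beside the synthetases were read as whole lists. Of 7 partners of mitochondrial charging and elongation, 6, 6, 4 and 6 rose with Odc deletion in TH1, TH2, TH17 and Treg cells and 5, 3, 2 and 4 with Dohh deletion, against 29.1%, 29.9%, 25.6% and 32.9% of all genes with Odc and 25.9%, 23.8%, 27% and 28.4% with Dohh deletion. The Dohh TH17 count lay near that background. Without the WT libraries numbered 4 the Odc counts were 6, 6, 5 and 6. Qrsl1, a subunit of the complex that makes mitochondrial glutaminyl-tRNA in place of a dedicated synthetase, rose in all 8 comparisons (0.57 to 1.07). Gfm1, a mitochondrial elongation factor, rose in 7 (0.58 to 1.46). Mtfmt, which formylates the initiator methionyl-tRNA, rose in Odc-/- Treg cells (0.40) and fell in Odc-/- TH2 cells (-0.36). Of 7 genes for the complex scaffold and cytosolic elongation factor 1, 4, 4, 4 and 6 rose with Odc deletion and 6, 2, 1 and 2 with Dohh deletion, so that the Dohh TH2, TH17 and Treg counts lay near or below the same shares of all genes. The Odc counts were 4, 4, 5 and 5 without the WT libraries numbered 4. Eef1a1, the factor that carries charged tRNA to the ribosome, fell in Odc-/- TH1 and TH2 cells (-0.44 and -0.59), without the WT libraries numbered 4 also in Odc-/- TH17 cells (-0.25), and in Dohh-/- TH2, TH17 and Treg cells (-0.82, -0.84 and -0.71).

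Of 24 genes of the ATF4 pathway, 10, 12, 9 and 8 rose and 5, 4, 3 and 4 fell with Odc deletion in TH1, TH2, TH17 and Treg cells, and 15, 16, 14 and 14 rose and 1, 1, 6 and 3 fell with Dohh deletion. Over all genes 29.1%, 29.9%, 25.6% and 32.9% rose and 27.7%, 29.3%, 22.2% and 26.9% fell with Odc deletion, and 25.9%, 23.8%, 27% and 28.4% rose and 24.1%, 21.5%, 24.9% and 25% fell with Dohh deletion. The Odc-/- Treg count of 8 that rose and the Dohh-/- TH17 count of 6 that fell were near these shares. Without the WT libraries numbered 4, 13, 12, 14 and 13 rose and 5, 5, 3 and 4 fell with Odc deletion, against 31%, 31.3%, 29.5% and 35.5% higher and 29.1%, 30.2%, 24.5% and 28.7% lower over all genes. With all libraries the medians were 0.34, 0.41, 0.30 and 0.17 in Odc-/- and 0.83, 1.16, 0.58 and 1.08 in Dohh-/- cells, and the Odc medians were 0.42, 0.49, 0.46 and 0.34 without the WT libraries numbered 4. Slc7a11, the cystine transporter, rose in all 8 (1.31 to 2.64 with Odc and 4.03 to 6.98 with Dohh deletion). Asns, asparagine synthetase, rose by 1.94, 2.34, 1.26 and 2.09 in Dohh-/- cells, but with Odc deletion only in TH1 and TH2 cells (0.76 and 0.85), and stood at 0.30 in TH17 and -0.18 in Treg cells. Without the libraries numbered 4 Asns rose in Odc-/- TH17 cells too (0.58, adjusted p = 0.0389) and stood at 0.29 (adjusted p = 0.289) in Treg cells. Trib3 rose in Dohh-/- TH1, TH2 and Treg cells (1.40, 2.38 and 1.46), fell in TH17 cells (-0.97) and did not pass the test in any Odc comparison (-0.57 to 0.31). Ddit3 fell in Odc-/- TH1 and TH2 and in Dohh-/- TH17 and Treg cells (-0.41, -0.80, -0.92 and -1.51). Ddit4, a stress-induced inhibitor of mTORC1, fell in all 4 Odc-/- subsets (-0.99 to -1.41). Without the Odc WT libraries numbered 4, Atf4, Mthfd2, Phgdh, Psat1, Shmt2, Slc3a2, Slc7a5 and Slc7a11 each rose in all 4 Odc-/- subsets. Ddit4 and Eif2ak4 then fell in all 4. With Dohh deletion mean Atf4 levels went from 296 to 693 CPM in TH1 and from 371 to 816 CPM in TH2 cells. In TH17 and Treg cells they went from 230 to 327 and from 229 to 494 CPM. Members of the list thus moved in both directions. In the Odc WT libraries numbered 4, Asns was at 83.6 to 109 CPM against 29.96 to 61.8 CPM in the other WT libraries.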

How the data were processed

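RNA-seq counts per gene were read from the 2 deposited tables, one for Odc and one for Dohh. Per the study's methods and the submitters' processing notes, the authors made stranded poly(A) libraries, aligned the reads with STAR to mm10, counted them with featureCounts and tested them with DESeq2. The strand setting of the counting is not given in the sources used here, nor is the version of any of these tools. Of 56 samples listed, 55 libraries had a column in the tables and were analysed. GENCODE M21 placed 47224 of 47937 rows, all 36 members among them, and gave exon lengths. Promoters came from RefSeq (GRCm38.p6).

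The main test was edgeR 4.0.16 (quasi-likelihood, TMM factors, filterByExpr, R 4.3.3) with the 8 groups of a table in 1 fit, or all groups of both tables for the difference between deletions. Benjamini-Hochberg adjustment ran over all genes tested, 13839 in the Odc and 13897 in the Dohh table. TMM factors were 0.925 to 1.08 and 0.752 to 1.11. At these depths 3 counts, the limit of a count of 0, came to 0.328 to 0.508 CPM and 0.239 to 0.456 CPM of the unadjusted total, which covers counting error only. CPM values are counts divided by the library total of the genes tested times its TMM factor, on the usual CPM scale. No pair of replicates agreed within sampling noise.

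Values in every library were given for the 3 members of each class with the largest mean absolute change among those that passed in at least 4 comparisons, the 3 with the smallest p in the interaction and WT subset tests of each table, and members past 2-fold in at least 2 comparisons. Other members are shown by range or chosen after their values were seen. The members, lists, tests and alternatives were chosen with earlier results of these data known. The test script was tested on simulated data. Alternatives were DESeq2 1.42.0, RLE factors, no or a stricter low-count filter, only the groups compared, stricter thresholds, replicate blocks and leaving out single libraries.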

Additional observations from a re-analysis of the deposited data

Results flagged for a closer look

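Among 168 groups of 4 Odc-table libraries examined, for 21 members and 3 class sums, 23 had a highest or lowest library far from the other 3, by a criterion that chance meets in about 1 of 20 groups. Of these, 17 were WT libraries numbered 4. For the cytosolic sum these were WT TH2 replicate 4 (3978 CPM, others 3107 to 3229 CPM) and Odc-/- TH17 replicate 1 (4054 CPM, others 3614 to 3628 CPM). For the mitochondrial sum without Lars2 they were WT TH1 replicate 4 (540.1 CPM, others 465 to 472 CPM) and Odc-/- TH17 replicate 3 (535 CPM, others 510 to 513 CPM).

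In WT TH17 cells replicate 4 was high for Aars (273 CPM, others 152 to 167 CPM), Farsa (81.7 CPM), Nars (306 CPM), Rars (123 CPM), Tars (151 CPM), Wars (87.0 CPM) and Yars2 (22.4 CPM), and low for Cars2 (28.1 CPM, others 31.1 to 31.7 CPM). In WT TH2 cells it was high for Lars (123 CPM), Nars (246 CPM), Rars (136 CPM), Tars (129 CPM) and Wars (60.8 CPM), in WT TH1 cells for Aars (219 CPM) and in WT Treg cells for Farsa (76.1 CPM). Among Odc-/- libraries, TH1 replicate 1 was low for Hars (134 CPM, others 206 to 209 CPM), Treg replicate 3 was high for Hars (166 CPM) and Rars (153 CPM), and Treg replicate 1 was high for Tars2 (99.6 CPM). What sets these libraries apart was not tested.

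The genotype effect differed between subsets, by edgeR's interaction test over all genes, with Odc deletion for Tars2 (adjusted p = 1.11e-05), Cars2 (7.11e-05), Wars2 and Fars2 (0.00107 each) and Wars (0.0336). With Dohh deletion it did for Tars2 (adjusted p = 0.00273), Farsb (0.00548), Wars (0.00935), Iars (0.0229), Fars2 (0.0296), Dars (0.0417), Nars (0.0423), Wars2 (0.0473) and Vars (0.0495).

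The Odc effect minus the Dohh effect, on the log2 scale, passed the same kind of test for 26 pairs of a member and a subset. In TH1 cells it was -0.97 for Sars, -0.80 for Nars2, -0.79 for Dars, 0.51 for Tars2 and 0.92 for Ears2. In TH2 cells it was -1.13 for Nars2, -0.89 for Sars, -0.81 for Dars, -0.76 for Nars and 0.62 for Tars2, and in TH17 cells 0.45 for Qars and 0.57 for Vars2. In Treg cells it was -1.23 for Nars, -1.14 for Cars, -1.0 for Dars, -0.86 for Tars, -0.81 for Rars, -0.79 for Gars, -0.73 for Aars, -0.71 for Iars, -0.68 for Sars, -0.64 for Eprs, -0.53 for Vars, 0.52 for Rars2, 0.74 for Tars2 and 0.89 for Wars2. Each deletion was compared with WT libraries of its own table, so differences between the deletions cannot be told apart from differences between the tables.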

How the results depend on the processing

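No member call changed sign under any alternative run. Of 120 calls of a cytosolic member in a comparison of KO with WT, 86 passed under each alternative run other than the 2-fold rule, and of 57 mitochondrial calls 38 did. The counts of changed members were as follows (cytosolic before mitochondrial where a pair is given), and the cause of a moved count was not tested unless the alternative tests fewer calls by construction. With the 2-fold rule, Odc counts were 3 and 0 in TH1, 6 and 1 in TH2, 0 and 0 in TH17 and 0 and 2 in Treg cells, and Dohh cytosolic counts 8, 10, 1 and 8, with mitochondrial counts of 2, 0 and 4 in TH2, TH17 and Treg cells. At an adjusted p below 0.01, Odc TH17 counts were 2 and 1, the Odc Treg cytosolic count 9, and Dohh mitochondrial counts 2, 2 and 5 in TH2, TH17 and Treg cells. The interaction counts were then 0 cytosolic (Odc) and 2 and 1 (Dohh), WT subset counts 4 mitochondrial (Odc) and 5 and 3 (Dohh), Dohh-/- subsets 0 mitochondrial, and the counts of Odc minus Dohh 2, 0 and 5 in TH1, TH17 and Treg cells.

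DESeq2 gave 3 mitochondrial members in Odc TH17 cells, 2 cytosolic in the Odc interaction, and 5 mitochondrial in the Dohh interaction and between Dohh-/- subsets. RLE factors gave 3 mitochondrial members in Odc TH17 cells. Without a low-count filter, mitochondrial counts were 3 in Odc TH17, 2 in Dohh TH2, 5 in Dohh Treg and 1 between Dohh-/- subsets, and interaction cytosolic counts 0 (Odc) and 3 (Dohh). With only the groups compared, Odc Treg had 9 and Dohh TH1 10 cytosolic members, and Dohh TH17 2 mitochondrial ones. Without the WT libraries numbered 4, an alternative chosen after seeing the data, Odc TH17 had 16 cytosolic members, the Odc interaction 12 and 7, Odc WT subsets 18 cytosolic, and Odc minus Dohh 1 in TH17 and 9 in Treg cells.

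Replicate numbers did not pair WT with KO libraries: deviations of same-numbered libraries correlated at -0.09 to 0.20 (Odc, 15 pairs) and -0.03 to 0.14 (Dohh, 12 pairs). Within a genotype they correlated at 0.03 to 0.58 (Odc) and -0.27 to 0.64 (Dohh), and 29 of 31 and 21 of 24 libraries matched best a library of their own number, a hint from the data. With the replicate block, the Odc interaction had 4 and Odc WT subsets 12 cytosolic members (43.2% and 76.7% of all genes), and Odc minus Dohh 4 in TH17 cells. With genotype and number as a donor block, the Odc interaction had 15 cytosolic members, Odc WT subsets 17 and 14, and Odc-/- subsets 19 cytosolic, against 52.9%, 81.5% and 65.3% of all genes. The replicate block moved no other count by over 1.5 times.

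Leaving out single libraries gave, for Odc, 15 to 18 and 8 to 10 in TH1, 14 to 18 and 10 to 12 in TH2, 2 to 13 and 2 to 6 in TH17 and 10 to 18 and 11 to 12 in Treg cells. For Dohh it gave 13 to 17 and 3 to 6, 14 to 15 and 3 to 4, 8 to 11 and 3 to 5, and 16 to 17 and 5 to 8 in the same order. The interaction ran from 0 to 6 and 4 to 6 (Odc) and from 2 to 15 and 1 to 6 (Dohh), WT subsets from 4 to 17 and 7 to 12 (Odc) and from 5 to 8 and 3 to 5 (Dohh), and KO subsets from 7 to 11 and 3 to 5 (Odc) and from 14 to 19 and 1 to 8 (Dohh). Odc minus Dohh ran from 2 to 9 in TH1, 4 to 6 in TH2, 0 to 4 in TH17 and 7 to 15 in Treg cells. The lowest count of a member in a library was 28, for Nars2, above the 3 that a count of 0 allows.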
